A study of Mus musculus with 2 samples.

Results

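Complement is a set of secreted proteins and receptors that tags and clears microbes, debris and, in the developing brain, synapses. The classical pathway starts when C1q, a protein built from the products of C1qa, C1qb and C1qc, binds a target and switches on the proteases C1r and C1s, which cut C4 and C2. The cut products cleave C3, the protein on which all complement pathways meet, and the C1 inhibitor encoded by Serping1 blocks C1r and C1s. In the brain, microglia are the known main source of C1q, and astrocytes and cells at the vessels and ventricles are known to make other components.

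The 6 genes described here are C1qa, C1qb, C1qc, C3, C4b (1 of the mouse C4 genes) and Serping1, taken by name from 29809 genes in the count tables, and all 6 had a row in both. The tissue was microdissected arcuate nucleus and median eminence, the hypothalamic floor that senses hormones and nutrients, from CD-1 mice 7 to 8 weeks old. Cells that were alive were sorted and captured by Drop-seq, which pairs each cell with a barcoded bead and counts the 3′ ends of its transcripts as unique molecular identifiers (UMIs). The wild type library came from 7 pooled mice, and the other from 5 pooled mice labelled Irx3/5+/-, that is, heterozygous for the transcription factor genes Irx3 and Irx5, hereafter the double heterozygote. No treatment was recorded, and the sources used here do not describe the altered alleles.

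Each genotype was 1 pool, so there is no replicate check and no p-value, and every interval is a 95% interval for counting error only. Cells were used where 300 genes or more were seen and 20% or less of the UMIs were mitochondrial. These were 2405 wild type cells with 4282490 UMIs (median 1274 per cell) and 1484 double heterozygote cells with 2862026 UMIs (median 1160.5). The libraries shared 1 used cell barcode. Levels are CPM, the UMIs of a gene per 1e+06 UMIs of a cell class in a library, and pairs of values give wild type first. The 20 cell clusters fell into 11 classes, named from marker genes with all complement genes left out of both the clustering and the naming. Astrocytes did not form a class of their own: all 10 astrocyte markers were detected within the tanycyte-like class (tanycytes are radial glia of the ventricle floor), at 3161 and 3640 CPM summed. The ependymal cell-like class also held 9 of these 10 markers in each library, at 2492 and 2368 CPM summed. Of the targeted genes, Irx3 had 31 and 15 UMIs and Irx5 16 and 6, ratios of 0.724 (0.363 to 1.38) and 0.561 (0.180 to 1.51), so the counts do not check the labels.

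The 3 C1q genes lie side by side in the genome. In GRCm38 with the GENCODE M21 annotation, C1qb (chr4:136880129-136886187), C1qc (chr4:136889804-136893065) and C1qa (chr4:136895917-136898803) stand within 18.7 kb on the minus strand. C3 (chr17:57203970-57228136), C4b (chr17:34728380-34743882) and Serping1 (chr2:84765387-84775444) are also on the minus strand, and all 6 are protein-coding. RefSeq promoter sequence (GRCm38.p6) was matched for 3 of the 6 genes, C1qb, C1qc and C3. It is printed because 2 of these genes were read almost wholly from microglia-like cells and the third was read from other cells. The letters run 5′ to 3′ on the minus strand, upstream of the transcription start, at chr4:136886201-136886450 for C1qb, chr4:136893066-136893164 for C1qc and chr17:57228137-57228386 for C3.
C1qb: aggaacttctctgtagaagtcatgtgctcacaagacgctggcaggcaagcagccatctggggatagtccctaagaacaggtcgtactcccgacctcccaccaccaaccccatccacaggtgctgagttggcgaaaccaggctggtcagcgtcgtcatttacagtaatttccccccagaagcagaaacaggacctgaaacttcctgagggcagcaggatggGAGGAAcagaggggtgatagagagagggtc
C1qc: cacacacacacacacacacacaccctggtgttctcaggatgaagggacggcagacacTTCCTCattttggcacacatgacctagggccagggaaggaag
C3: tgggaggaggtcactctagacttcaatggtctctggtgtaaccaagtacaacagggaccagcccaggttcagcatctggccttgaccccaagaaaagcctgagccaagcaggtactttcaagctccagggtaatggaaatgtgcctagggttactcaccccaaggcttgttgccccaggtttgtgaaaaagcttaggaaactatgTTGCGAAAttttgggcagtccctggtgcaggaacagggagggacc
Capitals mark the motifs searched on both strands, which do not overlap here. GAGGAA is a core of sites for PU.1, a transcription factor of myeloid cells, and TTGCGNAA is a form of the site for C/EBP factors. C1qb held 1 match of GAGGAA, C1qc held 1 match on the other strand (TTCCTC), and C3 held 1 match of TTGCGNAA and none of GAGGAA. Among 32851 RefSeq promoter windows of 250 bases, 23.3% held GAGGAA on either strand and 0.670% held TTGCGNAA. Among windows of 99 bases, the length shown for C1qc, 9.91% held GAGGAA. A match describes these letters and does not show binding.

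All 3 C1q genes were read almost only from microglia-like cells, in both libraries. C1qa had 438 UMIs in the 106 wild type microglia-like cells and 224 in the 47 double heterozygote ones, or 4171 CPM (3790 to 4581) and 4442 CPM. C1qb had 290 and 186 UMIs, or 2762 and 3689 CPM. C1qc had 231 and 118 UMIs, or 2200 and 2340 CPM. These cells carried all 12 microglia markers, among them Cx3cr1, Csf1r and P2ry12. They supplied 93.2% (90.5 to 95.3) and 95.3% (91.8 to 97.6) of C1qa UMIs, 94.5% and 93.9% of C1qb UMIs, and 93.9% and 95.9% of C1qc UMIs, while making up 4.41% and 3.17% of the used cells. The C1qa level in all other classes together was 7.66 and 3.91 CPM, so the microglia-like level was 545-fold (380 to 806) and 1135-fold (622 to 2307) higher. The same fold was 679 and 864 for C1qb, and 613 and 1316 for C1qc.

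**Figure D1:**
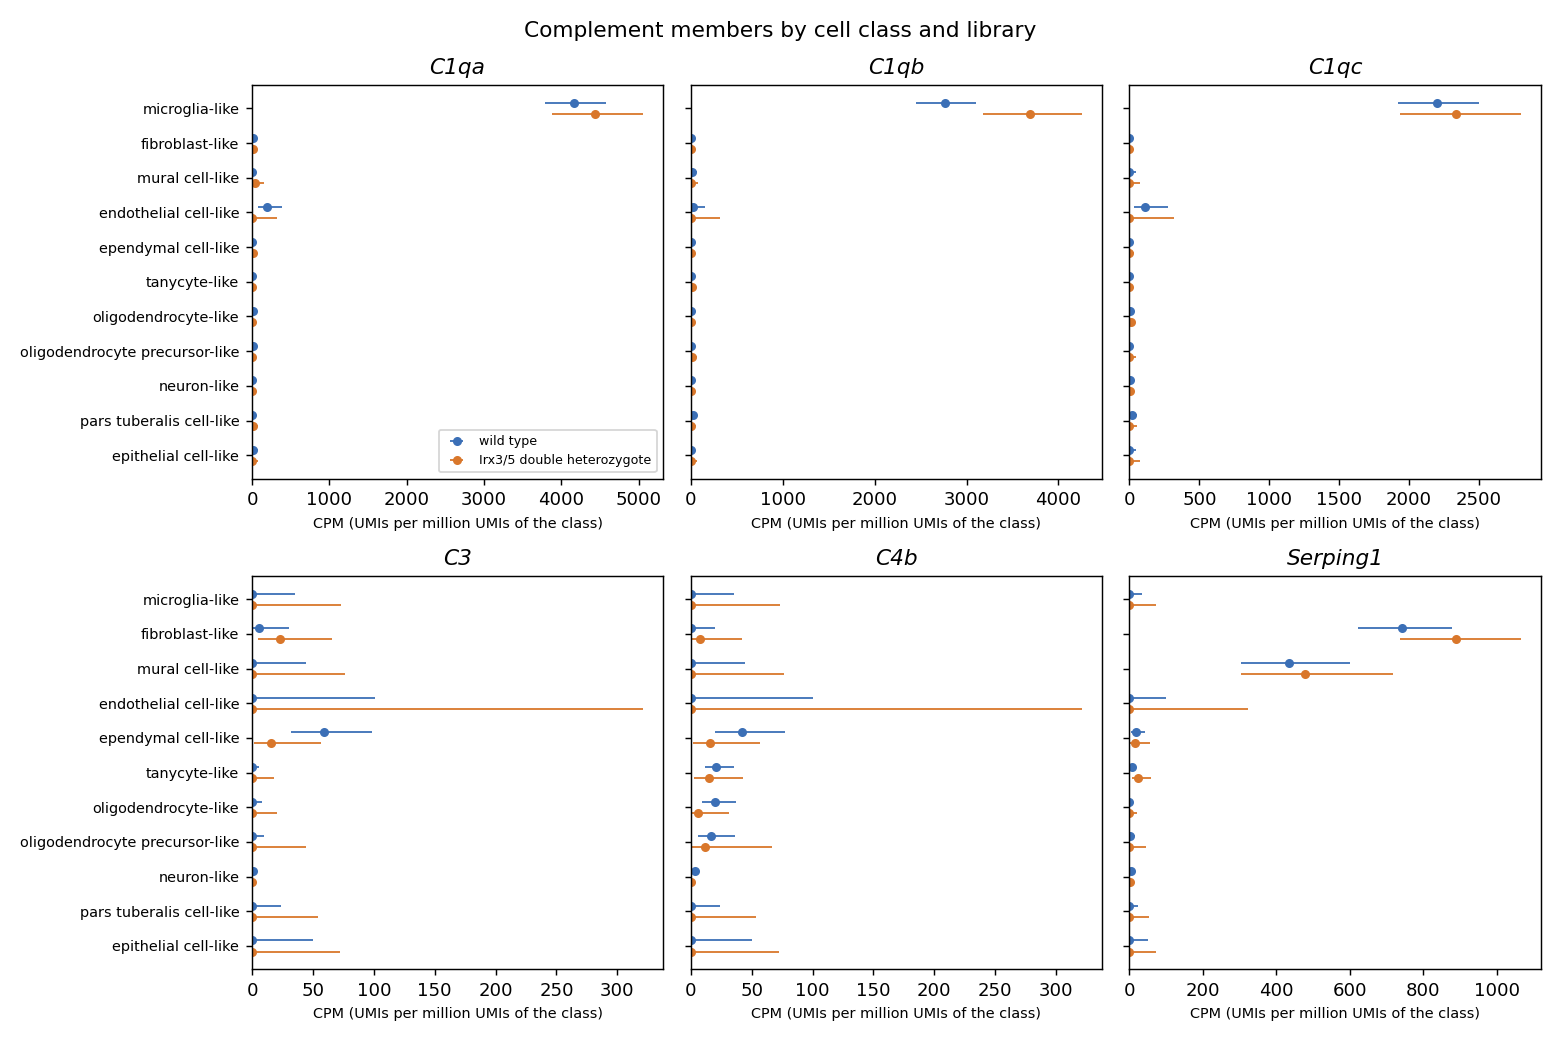
Level of each of the 6 genes by cell class. The x axis is CPM, on a scale of its own in each panel, points are the 2 libraries and bars are exact Poisson 95% intervals for counting error. The C1q panels hold 1 high class, microglia-like cells, the Serping1 panel holds fibroblast-like and mural cell-like cells, and C3 and C4b stay under 60 CPM in every class, with intervals that overlap for many of them.

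The leading class was at least 2-fold above every other class with 20 or more cells per library, in both libraries, for 3 of the 6 genes, the C1q genes. Over all 15155 genes with at least 30 UMIs, 12.8% met this rule, and 1.83% met it with microglia-like cells leading. C4b and Serping1 had at least 30 UMIs and did not meet it, and C3 had 21 UMIs in all.

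The few C1q UMIs outside microglia-like cells were spread thinly. Wild type had 64 and the double heterozygote 28, and neuron-like cells, the largest class, held 9 and 4 UMIs of C1qa at 4.67 and 2.10 CPM. The share of UMIs outside the class was 6.81% and 4.68% for C1qa, and 4.99% and 3.70% for Ctss, a lysosomal protease used as a microglia marker. The outside UMIs had a similar mix of the 3 genes: C1qa made up 32 of the 64 (37.2% to 62.8%) and 39.3% (21.5 to 59.4) of the 28, against 45.7% (42.5 to 48.9) and 42.4% (38.2 to 46.8) within microglia-like cells. Wild type endothelial cell-like cells stood out with 12 C1q UMIs in 2 of 40 cells, 11 of them in 1 cell. Those 2 cells held 44 UMIs of microglia markers, and the remaining cells held 4.

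**Figure D2:**
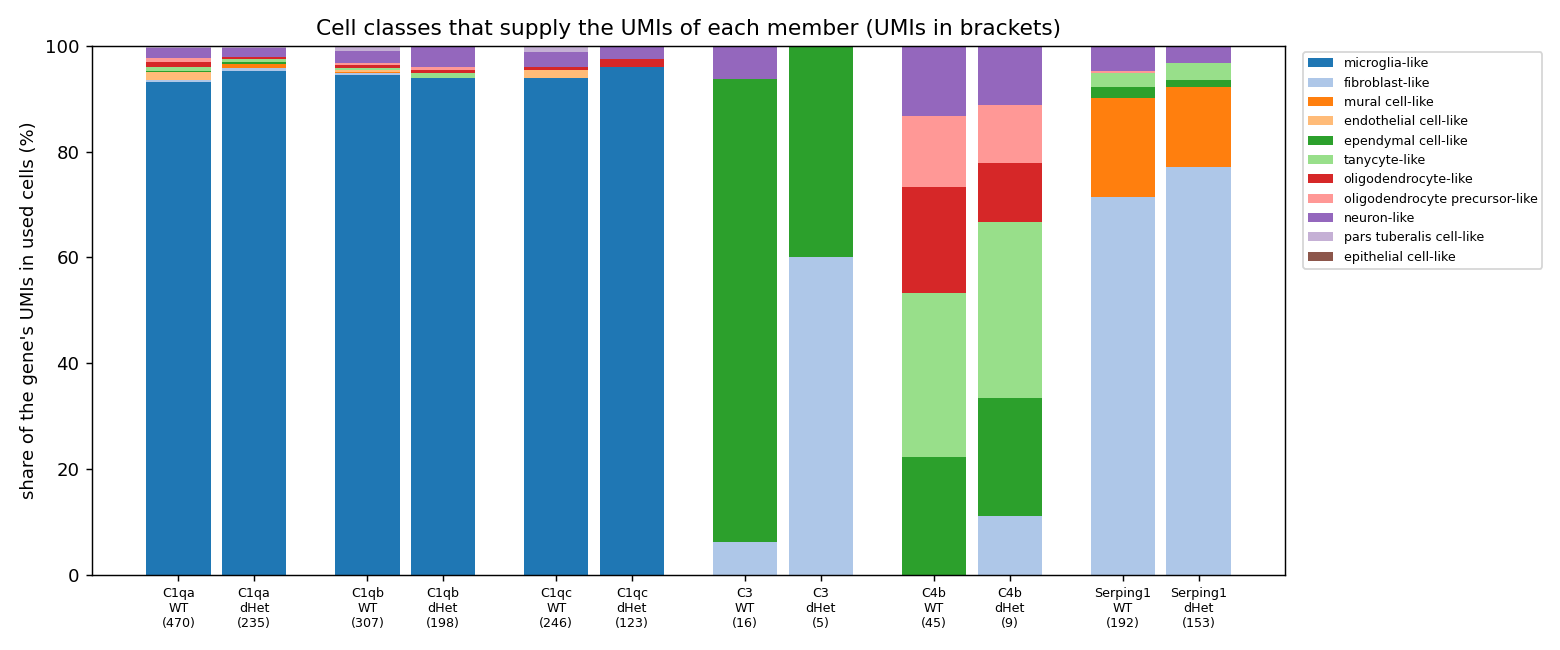
Share of the UMIs of each gene (y axis, %) that came from each cell class, for the wild type (WT) and double heterozygote (dHet) libraries, with the UMIs in brackets. The C1q bars are over 93% microglia-like, the Serping1 bars are over 90% fibroblast-like and mural cell-like together, and C4b is divided among 5 wild type and 6 double heterozygote classes.

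Most single microglia-like cells carried all 3 C1q transcripts. The summed C1q count per cell ran from 0 to 39 UMIs with a median of 8 in wild type, and from 0 to 38 with a median of 9 in the double heterozygote, so the ranges overlapped almost wholly. All 3 genes were seen in 69 of 106 cells (65.1%, 55.2 to 74.1) and 35 of 47 cells (74.5%, 59.7 to 86.1), and at least 1 of them in 94.3% and 95.7%. C1qa, which encodes the A chain, was seen in 88.7% (81.1 to 94.0) and 93.6% (82.5 to 98.7) of the cells. In neuron-like cells, which serve as background, it was seen in 1.10% and 0.567%, at a median of 1569.5 and 1780 UMIs per cell against 774 and 835 in microglia-like cells. With each cell thinned to 500 UMIs, which left out 12 and 6 microglia-like cells, C1qa was seen in 84.0% and 78.0% of microglia-like cells, and in 0 of 737 and 0 of 630 neuron-like cells, which allows up to 0.407% and 0.476%. Together the 3 genes took 0.913% and 1.05% of all UMIs of the class.

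**Figure D3:**
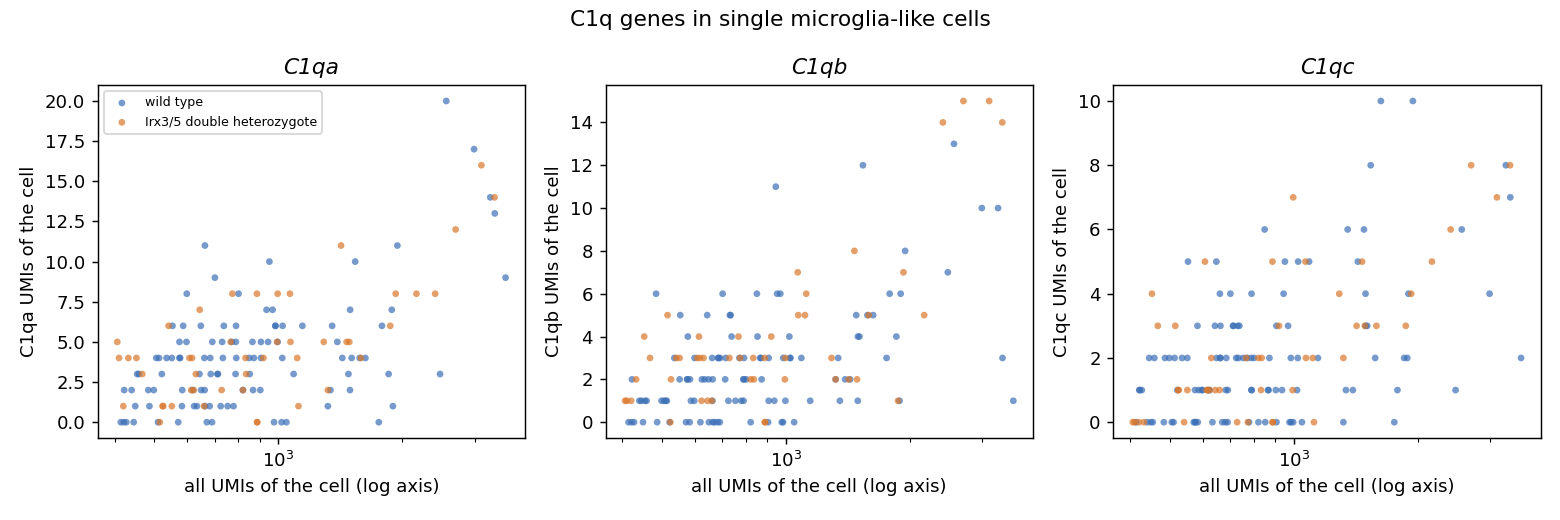
UMIs of C1qa, C1qb and C1qc in each microglia-like cell (y axis) against all UMIs of that cell (x axis, log scale), with 1 point per cell and colour for the library. Cells of the 2 libraries overlap over the whole range, and cells with more UMIs in all tend to hold more C1q UMIs.

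Within microglia-like cells C1qb was higher in the double heterozygote library, by a margin that depended on the scaling, and C1qa and C1qc differed by less than counting error. The log2 ratio of CPM, double heterozygote over wild type, was 0.09 (-0.15 to 0.33) for C1qa and 0.09 (-0.24 to 0.42) for C1qc, intervals that hold 0. It was 0.42 (0.14 to 0.69) for C1qb, which encodes the B chain. The summed C1q level was 9133 and 10471 CPM, a log2 ratio of 0.20 (0.04 to 0.35). Scaling by the median ratio of genes instead of by the class total moved all ratios in this class down by 0.24. The ratios were then -0.15 for C1qa, -0.15 for C1qc, -0.04 (-0.20 to 0.11) for the sum and 0.18 (-0.09 to 0.45) for C1qb, so the direction flipped for C1qa, C1qc and the sum, and the C1qb interval then held 0. None of the 3 genes passed a 2-fold difference, which 32.2% of the 3068 genes with at least 10 UMIs in this class did.

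The class itself differed between the libraries. Summed microglia markers were at 37055 and 30242 CPM (log2 ratio -0.29), with 5 of 12 higher and 7 lower in the double heterozygote, and 2 of 12 higher with median-ratio scaling. Markers of border macrophages, the C1q-bearing macrophages of meninges and vessels, were at 429 and 1785 CPM (log2 ratio 2.06, 1.53 to 2.61), with 8 of 8 higher under both scalings, and Cd163 and Lyve1 were at 0 in wild type. By the marker score of single cells, 3 wild type and 7 double heterozygote cells of the class scored as border macrophages, with C1q at 8569 CPM (6002 to 11864) and 9733 CPM (7984 to 11751). Without these cells the log2 ratio of C1qb was 0.40 (0.10 to 0.69), near its value with them. Markers of blood cells had 38 and 8 UMIs, and the part that the wider makeup of the class has in the C1q ratios was not tested.

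Over all used cells C1qa and C1qc were lower in the double heterozygote library, in which microglia-like cells were a smaller share of the cells. C1qa was at 110 and 82.1 CPM (log2 ratio -0.42, -0.65 to -0.19), C1qc at 57.4 and 43.0 CPM (-0.42, -0.74 to -0.10) and C1qb at 71.7 and 69.2 CPM (-0.05, -0.32 to 0.21). Had each class kept its wild type level, the class UMI totals of the double heterozygote would have given 228 UMIs of C1qa, and 235 were counted. The same values were 121 and 123 for C1qc, and 150 and 198 for C1qb. Microglia-like cells supplied most of these UMIs, so the values largely restate the ratios within that class. The part of class makeup in the lower levels was not tested.

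C4b, the classical pathway protein that C1s cuts, was read at low levels from glia and ependymal cells, with 0 UMIs in microglia-like cells. In wild type there were 10 UMIs in ependymal cell-like cells, the ciliated lining of the ventricle, 14 in tanycyte-like, 9 in oligodendrocyte-like, 6 in oligodendrocyte precursor-like and 6 in neuron-like cells. The double heterozygote held 2, 3, 1, 1 and 1 UMIs in those classes and 1 more in fibroblast-like cells. Ependymal cell-like cells had the highest level, 42.1 CPM (20.2 to 77.4) and 15.6 CPM (1.89 to 56.5), and tanycyte-like cells followed at 21.1 CPM (11.5 to 35.4) and 14.7 CPM (3.04 to 43.0). These neighbours in the order did not differ beyond their counting intervals, nor did oligodendrocyte-like cells at 19.7 and 5.63 CPM or their precursors at 16.6 CPM in wild type, on the intervals of each. Microglia-like cells held 0 UMIs of C4b in both libraries, which allows up to 28.6 and 59.5 CPM. These limits lie above the levels of tanycyte-like and oligodendrocyte-like cells, so the counts do not set microglia-like cells apart from those classes.

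The C4b signal among tanycyte-like cells came wholly from 1 of 2 clusters. The larger cluster held all 14 and 3 UMIs, at 30.1 and 26.2 CPM, and the smaller cluster, led by Scn7a, held 0. By the marker score of single cells, 117 and 57 cells were astrocytes, and C4b was highest there, with 11 and 4 UMIs at 67.2 CPM (33.5 to 120) and 70.2 CPM (19.1 to 180). The ependymal cells by that score then held 3 and 1 UMIs. Which class leads for C4b thus depended on how cells were assigned.

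C4b counts carry a further limit, because mouse C4a is a close copy 65209 bases away on the same strand. The last 500 bases of the 2 transcripts, the part a 3′ method reads, are 96.8% identical, and the sources used here do not say how reads that match both were treated. C4a, annotated as a processed transcript, had 13 and 3 UMIs, of which 11 and 3 were in neuron-like cells and 2 and 0 in pars tuberalis cell-like cells. C4b had 6 and 1 UMIs in neuron-like cells and 0 in pars tuberalis cell-like cells.

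C4b was lower in the double heterozygote library over all used cells, with 45 and 9 UMIs, or 10.5 and 3.14 CPM (log2 ratio -1.74, -2.96 to -0.69). A 2-fold lower level was seen for 13.5% of 18971 genes with at least 10 UMIs, and a 2-fold higher one for 4.14%, at a median log2 ratio of -0.10. With the wild type level in each class, the double heterozygote's class totals would have given 20.5 UMIs of C4b, against 9 counted (4.12 to 17.1). The level was lower in all 5 classes with at least 3 wild type UMIs. Those classes were picked by their wild type count, so nothing is read from that number. Fibroblast-like cells, with 0 and 1 UMIs, went the other way. Within ependymal cell-like cells the log2 ratio was -1.43 with an interval of -4.66 to 0.80. Among cells scored as astrocytes the levels, 67.2 and 70.2 CPM, did not differ beyond counting error. In the smaller astrocyte class that clustering at resolution 2 gave, C4b had 4 UMIs in 23 wild type cells (179 CPM) and 0 in 15 double heterozygote cells.

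C3 was rarer still, read mainly from ependymal cell-like cells in wild type and from too few UMIs in the double heterozygote to name a source. Wild type had 16 UMIs, of which 14 were in ependymal cell-like cells at 58.9 CPM (32.2 to 98.9), 1 in fibroblast-like and 1 in neuron-like cells. The double heterozygote had 5 UMIs, 2 in ependymal cell-like cells at 15.6 CPM (1.89 to 56.5) and 3 in fibroblast-like cells at 22.6 CPM (4.66 to 66.1). The log2 ratio in ependymal cell-like cells was -1.91, and its interval of -5.09 to 0.21 held 0. Median-ratio scaling lowers the ratios of C3 and C4b in this class by a further 0.16. C3 was seen in 9 of 157 and 2 of 91 of these cells, and in 1 of 820 and 0 of 706 neuron-like cells. Microglia-like and tanycyte-like cells held 0 UMIs of C3, which allows up to 4.52 and 14.7 CPM in tanycyte-like cells.

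Serping1, the gene of the C1 inhibitor, was read from fibroblast-like and mural cell-like cells. Fibroblast-like cells, which carried all 10 fibroblast markers, held 137 and 118 UMIs at 742 CPM (623 to 877) and 889 CPM (736 to 1065). Mural cell-like cells, the pericytes and smooth muscle of vessels, held 36 and 23 UMIs at 433 CPM (304 to 600) and 478 CPM (303 to 718). The fibroblast-like level was 1.71-fold (1.18 to 2.54) and 1.86-fold (1.18 to 3.05) the mural one, so it was higher in both libraries and under 2-fold. Both classes together supplied 90.1% and 92.2% of Serping1 UMIs. Summed fibroblast markers in mural cell-like cells stood at 5.97% and 7.48% of their level in fibroblast-like cells, and Serping1 at 58.4% and 53.8%. Dcn made up most of that sum, and single markers varied. Dcn was at 33700 and 31303 CPM in fibroblast-like cells and 337 and 374 CPM in mural cell-like cells. Mgp was at 6030 and 14155 CPM against 1794 and 2871 CPM, and Ogn at 839 and 671 CPM against 349 and 333 CPM. The source of the mural Serping1 UMIs was not tested further.

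Other classes held little Serping1. Ependymal cell-like cells had 16.8 and 15.6 CPM, tanycyte-like cells 7.54 and 24.5 CPM, and neuron-like cells 4.67 and 2.62 CPM. Microglia-like, oligodendrocyte-like and endothelial cell-like cells held 0 UMIs in both libraries, although 40 and 13 endothelial cell-like cells allow up to 81.8 and 261 CPM. Serping1 was seen in 51.0% (42.8 to 59.1) and 52.8% (43.6 to 61.9) of fibroblast-like cells, in 27.0% and 32.8% of mural cell-like cells and in 1.10% and 0.708% of neuron-like cells. Thinned to 500 UMIs, the fibroblast-like shares were 31.0% and 33.6%. A single cell held up to 10 UMIs of Serping1 in each library.

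Serping1 did not differ between the libraries beyond counting error. The log2 ratio was 0.26 (-0.11 to 0.63) in fibroblast-like cells and 0.14 (-0.68 to 0.94) in mural cell-like cells, and 0.25 (-0.06 to 0.57) over all used cells. Median-ratio scaling shifted fibroblast-like cells by 0.12, which left 0.15. Of the 6 genes, C3 and C4b passed 2-fold in their leading class, both downward and both on 2 double heterozygote UMIs. This compares with 22.3% of 6817 genes in ependymal cell-like cells and 24.5% of 5774 genes in fibroblast-like cells.

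**Figure D4:**
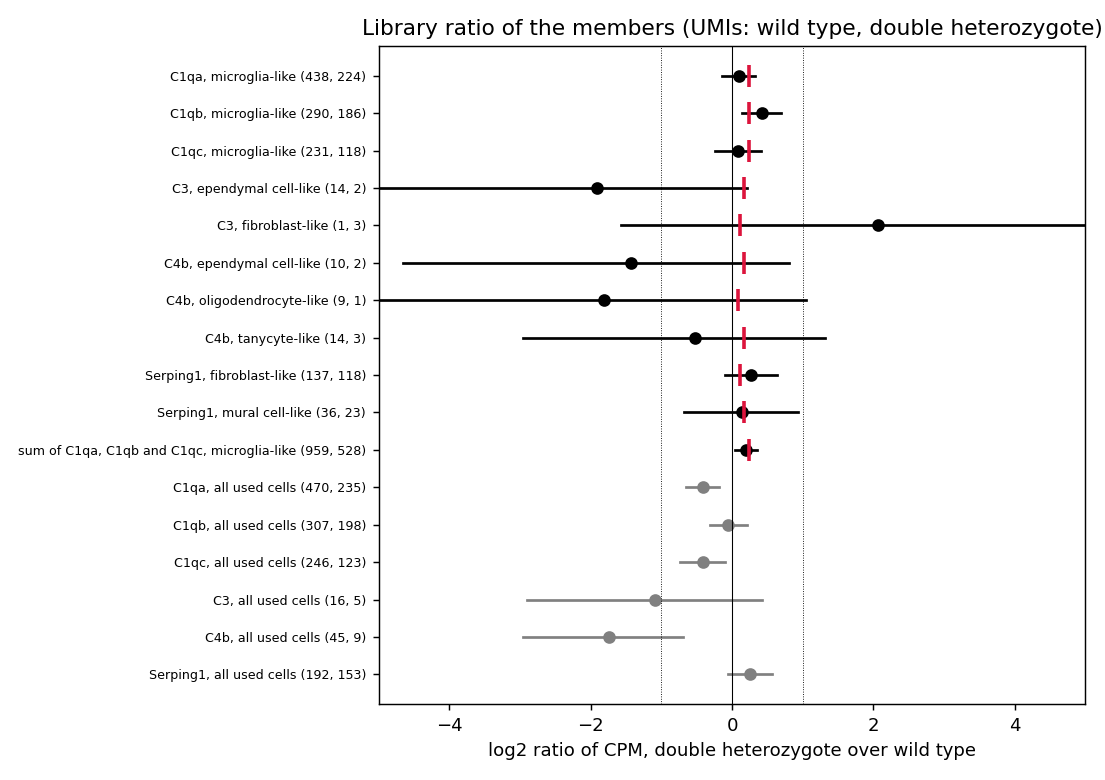
Log2 ratio of CPM, double heterozygote over wild type (x axis), for each gene in its main classes (black) and over all used cells (grey), with UMIs of wild type and double heterozygote in brackets. Lines are 95% counting intervals, which run off the axis for C3 and C4b, red ticks mark the median-ratio shift of the class, and dotted lines mark a 2-fold difference. C1qb at 0.42 lies above 0 and above the class shift of 0.24, and the summed C1q at 0.20 lies below that shift. C4b over all cells, at -1.74, lies below the lower 2-fold line.

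The genes whose level over classes was most like each of the 6 were found by Pearson correlation of log2(CPM + 10) over 20 class-by-library points, among 13259 genes. Points of 1 library share its depth and preparation, so the values are descriptive. C1qa was closest to Cd53, Fcgr3 and Ly86 (r of 0.98, 0.97 and 0.97), C1qb to Fcer1g, Samsn1 and Spi1 (r of 0.99 each) and C1qc to Samsn1, Cd300c2 and Gpr183 (r of 0.99 each), and Spi1 is the gene of PU.1. Serping1 was closest to Foxc1, Ebf2 and Bgn (r of 0.97, 0.97 and 0.96), C4b to Dbi, Gm12222 and Hepacam (r of 0.91, 0.90 and 0.88) and C3 to Ccdc78, Gm16006 and Zfp423 (r of 0.85, 0.84 and 0.82).

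Other complement genes were spread over the same classes, so that different steps of the cascade were read from different cells. Of 60 listed genes, 50 had a row, 25 had at least 30 UMIs, and 9 of these 25 had a leading class at least 2-fold above every other class with 20 or more cells per library, in both libraries, against 12.8% of all genes. The lists were chosen with earlier results known, so nothing is read from that difference. The proteases that bind C1q were read from fibroblast-like and mural cell-like cells. C1ra was at 184 and 113 CPM in fibroblast-like and 60.2 and 146 CPM in mural cell-like cells, an order that differed between the libraries. C1s1, the C1s gene, was highest in fibroblast-like cells in both libraries, at 162 and 136 CPM. Neither C1ra nor C1s1 had a UMI in microglia-like cells. Among lectin pathway genes, Colec12, a scavenger receptor with a collectin domain, was called for fibroblast-like cells at 834 and 882 CPM. Masp2, a protease of that pathway, had 33 UMIs, with 12 and 13 in neuron-like cells.

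Regulators were read from fibroblast-like, mural cell-like and ependymal cell-like cells, from glia and from neuron-like cells. Vtn, the gene of vitronectin, which blocks the membrane attack complex, was called for mural cell-like cells at 999 and 1310 CPM. Clu, the gene of clusterin, was highest in ependymal cell-like cells (2589 and 2462 CPM) and epithelial cell-like cells (3232 and 1919 CPM). Neuron-like cells, at 396 and 500 CPM, held 763 and 953 of its 2255 and 1577 UMIs. Of the membrane-bound regulators, Thbd, the gene of thrombomodulin, was at 482 and 565 CPM in fibroblast-like cells and at 382 and 436 CPM (14 and 5 UMIs) in endothelial cell-like cells. It is among the 9 called genes only because endothelial cell-like cells, with 13 cells in the double heterozygote, were too few to be compared. Cd55 and the secreted Cpn1 were called for ependymal cell-like cells. Susd4 was at 197 and 132 CPM in oligodendrocyte precursor-like cells (71 and 11 UMIs). Its level in neuron-like cells was lower, at 75.3 and 82.3 CPM, but they held more UMIs (145 and 157). Cd59a and Cr1l were read from every class in wild type. Neuron-like cells held 277 and 397 of the 688 and 506 Cd59a UMIs.

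**Figure D5:**
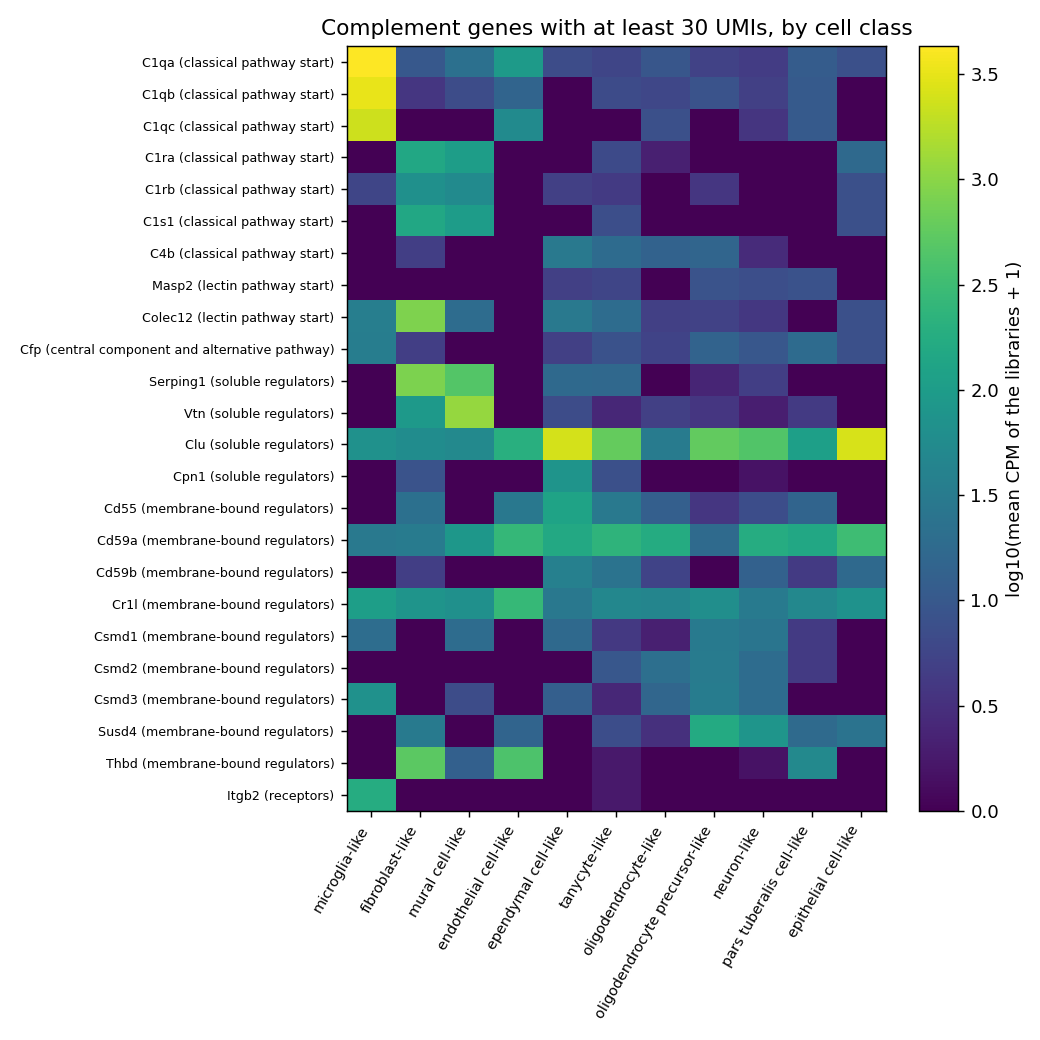
Listed complement genes, each with at least 30 UMIs (rows, with the step of the pathway in brackets) by cell class (columns), coloured by log10 of the mean CPM of the 2 libraries plus 1. C1q genes and Itgb2 are bright in the microglia-like column, and Colec12 in the fibroblast-like one. C1ra, C1s1 and Serping1 are bright in the fibroblast-like and mural cell-like columns, Thbd in the fibroblast-like and endothelial cell-like ones, and Vtn in the mural cell-like one.

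Receptors and late components were sparse. C3ar1, the receptor for the C3a fragment, had 13 and 13 UMIs in microglia-like cells (124 and 258 CPM) and 3 and 0 elsewhere, and Itgb2, a chain of complement receptor 3, had 23 and 7 UMIs there (219 and 139 CPM). Hc, the gene of C5, had 8 and 9 UMIs in ependymal cell-like cells (33.7 and 70.3 CPM), and C7 had 10 and 7 in fibroblast-like cells. Over all used cells, 37 listed genes had at least 10 UMIs. Of these, 18 were higher and 19 lower in the double heterozygote, with a median log2 ratio of -0.0035. Past 2-fold were 1 higher gene, Cfp (properdin), at 23 and 31 UMIs, and 8 lower ones, against 4.14% higher and 13.5% lower over all genes. Of the 8, C4b, Csmd1 (100 and 30 UMIs) and Itgb2 (24 and 7 UMIs) had at least 30 UMIs.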

How the data were processed

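Single-cell 3′ transcript counts of 2 pooled libraries were analysed. The deposited tables hold whole-number counts of UMIs per gene and barcode, made by the authors. Per the submitters' processing notes, bcl2fastq, Picard, STAR 2.6.0b and Seurat 3 were used with mouse build mm10. The sources used here do not give the annotation or the treatment of reads that match several genes. The authors also deposited a merged table on a natural log scale, ln(1 + UMIs scaled to 10000 per cell) by its values, whose 4297 cells (3804 of them used here) gave 1 alternative.

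Raw counts of the 3889 used cells were clustered with scanpy 1.11.5 (2000 variable genes without complement genes, 30 principal components, 20 neighbours, Leiden resolution 1 with leidenalg 0.10.2) and named from 14 marker lists. A name needed at least 3 markers in 10% of cells at over 2-fold the median cluster. Doublets were kept: Scrublet marked 17 cells (0.437%), too few to have worked, and leaving them out was an alternative. UMIs were summed per class and library. Intervals are exact Poisson (levels), Clopper-Pearson (shares) and conditional binomial (ratios). A count of 0 is given with the level of 3 counts. The interval computation was tested on simulated counts. A leading class needed 20 cells in each library. The members and lists were chosen with earlier results of these data known. The listed genes named are the up to 4 with most UMIs per role and those past 2-fold with at least 30 UMIs. The values of 1 listed gene are not reported here, though it stays in the counts over the lists. C4a, C1s1, Cpn1, Cd55 and the promoter motifs were chosen after values were seen. Alternatives changed the cell limits, clustering, class assignment, scaling and minimum counts. The libraries cannot be tied to single mice, so genotype and pool cannot be told apart.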

Additional observations from a re-analysis of the deposited data

Results flagged for a closer look

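Barcodes that did not pass the limits on genes and mitochondrial UMIs were not used in any comparison, and they held complement transcripts above the limit that a count of 0 allows. In the 395 wild type barcodes left out, C1qa was at 270 CPM (192 to 369), C1qb at 187 CPM and C1qc at 194 CPM, against 110, 71.7 and 57.4 CPM over the used cells. In the 316 double heterozygote barcodes left out, C1qa was at 232 CPM (152 to 340), C1qb at 71.4 CPM (30.8 to 141) and C1qc at 143 CPM, against 82.1, 69.2 and 43.0 CPM over the used cells. Serping1 was at 71.4 CPM (30.8 to 141) in the double heterozygote barcodes left out, with 8 UMIs, and had 1 UMI in the wild type ones. C3 had 0 UMIs in the barcodes left out of either library, and C4b had 3 in each.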

How the results depend on the processing

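The C1q genes were called for microglia-like cells under all 10 alternatives to the choice of cells, classes and averaging. C4b was called as well, for a count of 4 in place of 3, with at least 500 genes per cell and with cells classed by their own marker score. Under that score border macrophages (13 and 12 cells) were a class of their own, too small to be compared. Their C1qa level was 782 and 2803 CPM, against 4380 and 5012 CPM in microglia. In the double heterozygote all 3 C1q genes were under 2-fold higher in microglia than in border macrophages. C4b led in astrocytes by 4.67-fold under that score, and in tanycyte-like cells by 1.16-fold with the mean over cells. The number of the 6 genes past 2-fold between libraries was 2, and 1 (C3) with at least 500 genes, at most 10% mitochondrial UMIs, own marker scores or the mean over cells. The log2 ratio ranged from 0.18 to 0.44 for C1qb, from -0.15 to 0.19 for C1qa, from -2.53 to -1.68 for C3 and from -1.96 to -0.62 for C4b. The count of listed complement genes past 2-fold was 9, and 4 with at least 30 UMIs and 21 with no minimum. Leaving out border macrophages, and the UMIs expected at wild type class levels, were chosen after seeing the data. Depth limits C3 (21 UMIs), C4b (54 UMIs) and all classes with few cells. No paired analysis was possible because each genotype is 1 pooled library.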

Other observations

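Genes named for their C1q-like domain, which are not part of complement, were read from other cells than C1q itself. These 12 C1ql and C1qtnf genes were examined after the data were seen. C1ql1, known as a synaptic organiser, was at 441 and 1006 CPM in oligodendrocyte precursor-like cells, with 258 UMIs in all and 1 and 0 UMIs in microglia-like cells. C1ql2 was at 125 and 132 CPM in the same class, and C1qtnf4 was highest in neuron-like cells at 160 and 170 CPM. Of the 6 such genes with at least 30 UMIs, 2 (C1ql1 and C1ql2) met the 2-fold rule for a leading class in both libraries. Over all 15155 genes with at least 30 UMIs, 12.8% met it, and nothing is read from that difference on 6 genes.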
